A study of Mus musculus with 14 samples.

Results

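The comparison described here sets the 2 most distant groups of a design with 2 genotypes and 2 treatments against each other, in mouse liver RNA. The 4 LKO tunicamycin libraries were set against the 3 WT vehicle libraries, so 7 of the series' 14 libraries entered the contrast, chosen by their labels. All mice were male littermates of 5 to 7 months with both Rbbp5 alleles floxed, per the series' design text, while the sample titles spell the deleted gene RRBP5. LKO mice also carried 1 copy of Alb-Cre, a Cre recombinase driven by the albumin promoter of hepatocytes, and WT mice carried none. LKO tunicamycin mice received 0.05 mg/kg tunicamycin into the peritoneum in 500 µl of 3% DMSO in PBS, and WT vehicle mice received 3% DMSO in PBS. Mice were injected from 9 to 10 am and dissected 8 h after that. The other 2 groups, WT tunicamycin and LKO vehicle, changed 1 factor each and are given beside the results. In the contrast itself deletion, Cre and drug changed together and cannot be told apart. The labels do not say whether each library came from a separate mouse, so a p-value measures the spread between libraries.

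RBBP5 is a core subunit of the COMPASS family of histone methyltransferases, which mark lysine 4 of histone H3 at active promoters and enhancers. Tunicamycin blocks the first step of N-linked glycosylation, so that unfolded glycoproteins collect in the endoplasmic reticulum (ER) and start the unfolded protein response, which raises ER chaperones and, with longer stress, the transcription factors ATF4 and CHOP. Hepatocytes make most plasma proteins, and in inflammation they raise acute phase proteins while lowering enzymes of drug, bile acid, lipid and energy metabolism.

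Reads on the gene's own strand were counted for 24411 named genes. The 7 libraries held from 6507018 to 9425475 such reads, of which the ribosomal RNA gene Rn45s took from 72.5 to 74.3%, leaving from 1750308 to 2581822 for all other genes. Levels are given as CPM, reads of a gene per 1000000 reads on genes, Rn45s included, after TMM adjustment of library sizes. CPM is not divided by gene length, so levels of different genes are not compared. In bulk liver, fewer cells of a type and less RNA per cell cannot be told apart. On the first principal component of all 13 samples, which held 29.5% of the variance, the WT vehicle libraries lay between -27.8 and -22.0 and the LKO tunicamycin libraries between 14.1 and 22.5. WT tunicamycin 3 lay at -25.2, within the WT vehicle range, and WT tunicamycin 1 and 2 at 12.1 and 18.1, so counts that use that group are given with and without library 3.

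Rbbp5 (chromosome 1, 132477348 to 132505665, mm10, as are all positions of genes below, from RefSeq) was examined first, as the check of the genotype labels. It stood at 4.07, 6.41 and 5.1 CPM in WT vehicle 1 to 3 and at 2.8, 3.12, 3.46 and 2.06 CPM in LKO tunicamycin 1 to 4. Every WT vehicle library lay above every LKO tunicamycin library, and from 19 to 50 reads lay behind each value. The log2 fold change was -0.85 ± 0.25 (SE), with a Benjamini-Hochberg adjusted p of 0.045 in edgeR's quasi-likelihood test. Group means were 5.19 ± 1.17 CPM (SD, n = 3) in WT vehicle and 2.86 ± 0.598 CPM (n = 4) in LKO tunicamycin, with 5.37 in WT tunicamycin and 2.94 in LKO vehicle. Of the 13 leave-one-out fits, each without 1 sample, 9 lost the call: those without WT vehicle 1, 2 or 3, WT tunicamycin 1 or 2, or LKO tunicamycin 1, 2, 3 or 4. Its log2 fold change lay between -1.02 and -0.68 in the 13 fits.

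Over 9644 genes with enough reads, 797 (8.26% of genes tested) passed a threshold of 0.05 on the Benjamini-Hochberg adjusted p of edgeR, and are called below. Of these, 386 were higher in LKO tunicamycin (4.0%) and 411 lower (4.26%). The rises were larger than the falls: called higher genes had a median log2 fold change of 1.12 in size, and 52 of them passed 4-fold, while called lower genes had a median of 0.66 in size and 14 passed 4-fold. No library of one group lay within the CPM range of the other for 785 called genes, a state met by 25.5% of the genes tested. The median log2 fold change of all genes was 0.01. The spread of all genes around no change, with the called genes on both sides, is shown in the plot of fold change against p.

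**Figure D1:**
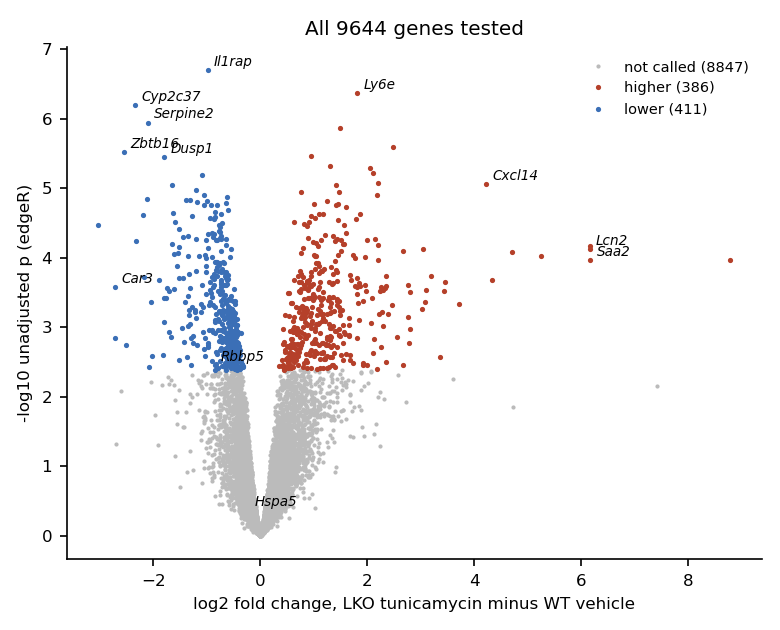
Each point is 1 of 9644 genes, with the log2 fold change of LKO tunicamycin minus WT vehicle on the x axis and -log10 of the unadjusted edgeR p on the y axis. The 386 genes called higher (red) reach further from 0 than the 411 called lower (blue), and the labelled ER chaperone gene Hspa5 lies near the origin.

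The number of calls rested on the WT vehicle libraries. Without WT vehicle 1, 2 or 3 it was 193, 277 and 377, without LKO tunicamycin 2 or 3 it was 525 and 512, and without any other single sample from 575 to 1097. Counts of calls in such fits are given with the gene groups below. The count called in each group is to be read beside the shares over all genes, 4.0% higher and 4.26% lower. Counts at an unadjusted edgeR p under 0.05 are to be read beside 2359 of the 9644 genes tested. Fitted on the 2 groups alone, without the other 6 samples, 1384 genes were called and 787 of the 797 were among them.

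Genes were ranked by fold change where the CPM ranges stood apart and the mean log2 CPM reached 2, and Saa2, Orm2 and Lcn2 had the largest rises. Saa2, a serum amyloid A carried on lipoproteins (chromosome 7, 46751833 to 46754313), stood at 11.9, 17.9 and 63.8 CPM in WT vehicle 1 to 3 and at 2585, 3241, 1361 and 1767 CPM in LKO tunicamycin 1 to 4. For Orm2, an orosomucoid (chromosome 4, 63362449 to 63365877), the values were 4.67, 6.54 and 8.02 CPM and 476, 520.2, 445 and 391 CPM. Lcn2, the iron-siderophore binding lipocalin (chromosome 2, 32384637 to 32387739), had 4.07, 3.33 and 8.45 CPM and 413, 483, 298 and 307 CPM. In each of the 3 genes the highest WT vehicle library lay far under the lowest LKO tunicamycin library, and the log2 fold changes were 6.17 ± 1.22 (SE; adjusted p 0.00802), 6.17 ± 1.17 (SE; adjusted p 0.00654) and 6.16 ± 1.18 (SE; adjusted p 0.00688). The remaining 12 of the 15 largest rises were Saa1 at 5.26, Cyp17a1 at 4.71, Cxcl14 at 4.22, Ntrk2 at 3.72, Apcs at 3.46, Saa3 at 3.44, Spp1 at 3.04, Isyna1 at 3.02, Col1a1 at 2.67, Ifi27l2b at 2.49, Mt1 at 2.35 and Orm1 at 2.32. Among them, Cyp17a1 encodes a steroid hydroxylase and lyase (chromosome 19, 46667165 to 46673000), and went from 1.08, 0.641 and 0.583 CPM to 7.46, 25.8, 42.7 and 6.73 CPM. The LKO tunicamycin libraries fell into a lower pair, 1 and 4, and a higher pair, 2 and 3. Cxcl14, a chemokine (chromosome 13, 56288643 to 56296811), went from 0.718, 0.384 and 0.437 CPM to 10.3, 15.1, 8.66 and 6.3 CPM. Ntrk2, which encodes the neurotrophin receptor TrkB, owed much of its mean to LKO tunicamycin 3, with 2.27, 2.08, 20.3 and 4.56 CPM in the 4 libraries. Isyna1, which makes inositol phosphate from glucose phosphate, stood within 1.28 and 1.32 CPM in WT vehicle and at 14.1, 13, 7.64 and 8.36 CPM in LKO tunicamycin. Saa1 and Saa2, and Orm1 and Orm2, are near copies of each other, so the split of reads within each pair is uncertain.

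The largest falls by the same rule were those of Car3, Zbtb16 and Cyp2c37. Car3, carbonic anhydrase 3 (chromosome 3, 14863538 to 14872381), went from 499, 639.5 and 657 CPM in WT vehicle to 80.6, 56.3, 112 and 113 CPM in LKO tunicamycin, a log2 fold change of -2.72 ± 0.59 (SE; adjusted p 0.0114). Zbtb16, a zinc finger transcription factor (chromosome 9, 48651797 to 48836225), went from 24.4, 24.9 and 28 CPM to 5.46, 3.9, 3.97 and 4.34 CPM, a change of -2.54 ± 0.37 (SE; adjusted p 0.00379). Cyp2c37, a cytochrome P450 of the Cyp2c cluster (chromosome 19, 39992424 to 40012243), went from 90.9, 107 and 93 CPM to 29.4, 15.9, 9.07 and 22.9 CPM, a change of -2.33 ± 0.30 (SE; adjusted p 0.00202). No library of either group entered the range of the other in these genes. The remaining 12 falls were the carboxylesterases Ces1d at -2.33 and Ces1e at -2.11, Cyp2a5 at -2.17, the protease inhibitor Serpine2 at -2.11, the membrane peptidase Mme at -2.05, the urinary protein Mup12 at -2.02, the endothelial lipase Lipg at -1.9, 1500017E21Rik at -1.81, the MAP kinase phosphatase Dusp1 at -1.79, Ugt2b1 at -1.77, the peroxisomal thiolase Acaa1b at -1.71 and the bile acid sulfotransferase Sult2a8 at -1.65. Mup, Ces1 and Cyp2c genes have close copies in the genome, so their single values are uncertain.

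**Figure D2:**
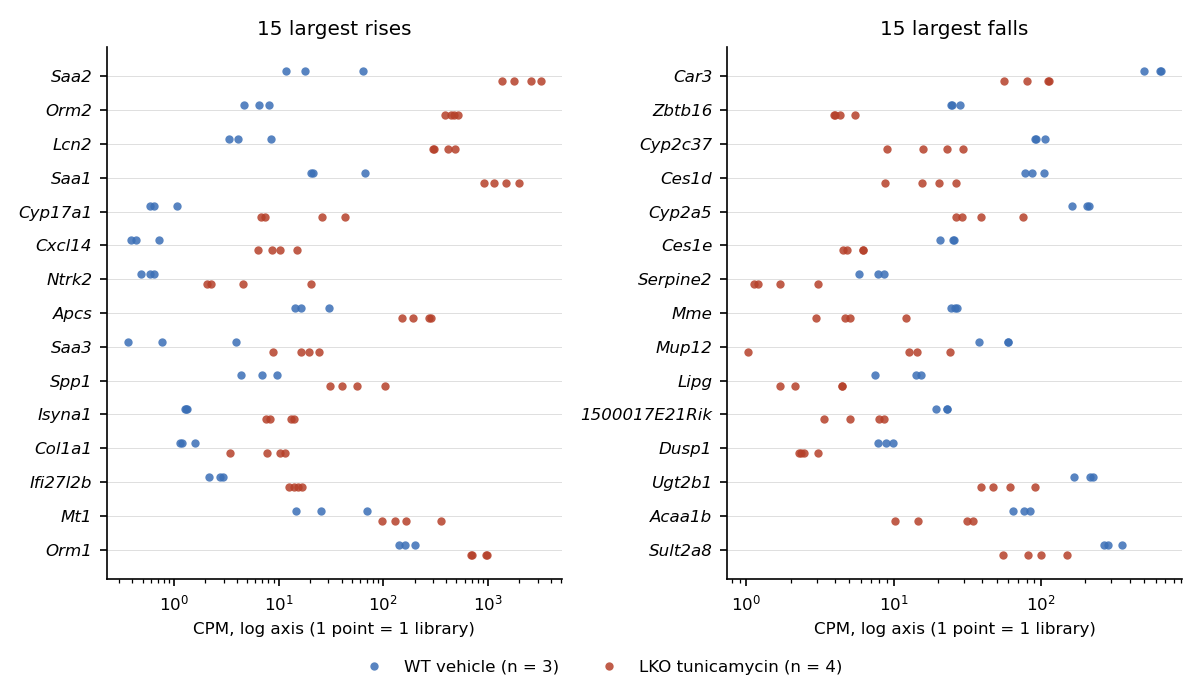
Each point is the CPM of 1 library (log axis), for WT vehicle (blue, 3 libraries) and LKO tunicamycin (red, 4 libraries), in the 15 genes with the largest rise (left) and the 15 with the largest fall (right) by the naming rule. The naming rule required the colours to separate in every row. They lie much further apart for Saa2, Orm2 and Lcn2 than for Mt1, and Ntrk2 has 1 high red point.

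Of these 30 genes, 16 kept their call in all 13 leave-one-out fits. The 7 rises were Orm2, Lcn2, Cyp17a1, Cxcl14, Spp1, Col1a1 and Ifi27l2b, and the 9 falls Car3, Zbtb16, Cyp2c37, Ces1d, Cyp2a5, Ces1e, Serpine2, Dusp1 and Sult2a8. Saa2, Saa1, Lipg and 1500017E21Rik lost it only without WT vehicle 1, and Ugt2b1 only without WT vehicle 2. Apcs, Saa3, Orm1 and Mme lost it without WT vehicle 1 or 2, and Ntrk2 and Isyna1 without WT vehicle 1, 2 or 3. Mt1 lost it in 5 fits, without WT vehicle 1 or 2 or LKO tunicamycin 1, 2 or 3, Acaa1b without WT vehicle 1, 2 or 3 or LKO tunicamycin 1 or 2, and Mup12 without WT vehicle 1, 2 or 3 or LKO tunicamycin 1 or 4. In 6 of the 30 a left-out sample moved the fold by over 1.5 times. Without LKO tunicamycin 3 the log2 fold change of Ntrk2 was 2.40 and that of Cyp17a1 4.06, and without WT vehicle 3 those of Saa2, Saa1, Saa3 and Mt1 were 7.22, 6.05, 4.91 and 3.2.

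The acute phase list, plasma proteins that hepatocytes raise under cytokine signals, held 26 tested genes, of which 16 rose and none fell. Its median log2 fold change was 1.56, beside 0.01 for all genes, and the summed level of the list ran from 6001 to 7822 CPM in WT vehicle and from 18392 to 27426 CPM in LKO tunicamycin. Haptoglobin, Hp, which binds free hemoglobin, stood at 378, 357 and 479 CPM in WT vehicle and at 1916, 2024, 1816 and 1656 CPM in LKO tunicamycin, a log2 fold change of 2.19 ± 0.43 (SE; adjusted p 0.00802). Hemopexin, Hpx, which binds heme, stood at 443, 504 and 626 CPM and 2254, 2657, 2361 and 2071 CPM, a change of 2.16 ± 0.40 (SE; adjusted p 0.00608). Both scavengers separated the groups completely. The fibrinogen chains Fga, Fgb and Fgg changed alike, at 1.25, 1.31 and 1.27, and stood at 971, 1114 and 1356 CPM against 3575, 3334, 2490.5 and 1985 CPM for Fgb. Further rises were the serum amyloid P component Apcs, the copper-carrying ferroxidase Cp at 1.57 ± 0.30 (SE; adjusted p 0.00642), the protease inhibitor Serpina3n at 2.0, and Itih3 and Itih4 at 1.97 and 1.55, chains of inhibitors that bind hyaluronan. The count of 16 became 4 and 7 without WT vehicle 1 and 2. Markers of monocytes and neutrophils are given with the immune genes below, and their part in this result was not tested.

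Of 26 complement and coagulation genes, 3 rose and 2 fell, with a median of 0.19. C3, the central complement component (chromosome 17, 57203967 to 57228136), stood at 1956, 1872 and 2094 CPM in WT vehicle and 4669.9, 4344, 5088 and 4238 CPM in LKO tunicamycin, a log2 fold change of 1.22 ± 0.30 (SE; adjusted p 0.0192). All 4 LKO tunicamycin libraries lay at or above 4238 CPM and every WT vehicle library at or below 2094 CPM. The kininogen gene Kng1 rose by 0.75, while the complement gene C8g was at -0.47 and the clotting factor subunit F13b at -0.50. The higher count was 0 without WT vehicle 1, 2 or 3 and 6 without WT tunicamycin 3, and the lower count 0, 0 and 1 without WT vehicle 1, 2 and 3, 1 without WT tunicamycin 2, 1 without LKO vehicle 1 or 2, and 1 without LKO tunicamycin 1, 2 or 3. In the list of metallothioneins and metal handling, 3 of 16 rose: Mt1, which binds zinc and copper and is induced in the acute phase, the iron carrier transferrin Trf at 1.3 ± 0.30 (SE; adjusted p 0.0155), and the ferrireductase Steap3 at 1.35. Mt1 varied within both groups, with 14.7, 25.6 and 70.4 CPM in WT vehicle and 129, 358, 164 and 97.2 CPM in LKO tunicamycin, which came within 1.5-fold of each other at their nearest libraries. The metal count was 1 and 0 without WT vehicle 1 and 2, with a lower count of 1 without WT tunicamycin 3.

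Of 38 interferon and antigen presentation genes 4 rose and none fell, with a median of 0.23. The share called was 10.5%, beside 8.26% called over all genes tested and 4.0% called higher. Ly6e, a membrane protein induced by interferon (chromosome 15, 74955025 to 74959904), stood at 28.9, 21.3 and 19.8 CPM in WT vehicle and 77.1, 77.3, 83.1 and 92.1 CPM in LKO tunicamycin, a log2 fold change of 1.82 ± 0.23 (SE; adjusted p 0.00202). Ifi27l2b, of a family of interferon-inducible genes (chromosome 12, 103450898 to 103457223), stood at 2.75, 2.18 and 2.92 CPM and 15.5, 14.1, 16.7 and 12.5 CPM, a change of 2.49 ± 0.36 (SE; adjusted p 0.00379). Both kept narrow ranges within each group. The antiviral Oasl1 rose by 1.67 and Rtp4 by 0.87, both at under 5 CPM. The count was 2 without WT vehicle 1 or 3 and 2 without LKO tunicamycin 3. Of 12 Kupffer cell and macrophage markers, 1 rose, the scavenger receptor Marco, and it overlapped: 1.44, 2.69 and 2.33 CPM in WT vehicle and 2.53, 20.7, 6.73 and 12.1 CPM in LKO tunicamycin, with an edgeR log2 fold change of 2.28 ± 0.54 (SE; adjusted p 0.0164). The Kupffer count was 0 without WT vehicle 1, 2 or 3, 2 without WT tunicamycin 3, 2 without LKO vehicle 1 or 2, and 2 without LKO tunicamycin 1 or 3. The share of the Kupffer list called was 8.33%, beside 8.26% over all genes. The summed Kupffer list ran from 61.2 to 73.5 CPM in WT vehicle and from 75 to 143 CPM in LKO tunicamycin. Of 4 tested monocyte and neutrophil markers, 1 rose, S100a8, a calcium-binding protein of neutrophils, from 0.12, 0.128 and 0.437 CPM to 1.47, 4.42, 1.83 and 1.85 CPM. That count was 0 without WT vehicle 1, 2 or 3, 2, 2 and 4 without WT tunicamycin 1, 2 and 3, 2 without LKO vehicle 1, and 0 without LKO tunicamycin 2 or 3. All 4 of these markers had point estimates above 0, with a median of 2.14, and in 3 the groups did not overlap. Over all genes tested, 12.5% were higher without overlap. Only 4 of the 8 listed markers had enough reads to be tested. S100a8, with 1, 1 and 3 reads in WT vehicle, was tested only through its reads in other groups. The filter thus favours rises in this list, and the shared sign is no separate evidence. The sum of the whole monocyte and neutrophil list ran from 12.7 to 13.6 CPM in WT vehicle and from 13.2 to 30.2 CPM in LKO tunicamycin. None of the T, B and NK cell markers had enough reads to be tested, and their sum stayed under 0.7 CPM in all 7 libraries. No interferon, acute phase or matrix result was tested for a part of these cells in it.

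Genes of the extracellular matrix rose in 13 of 33 cases, with 2 falls and a median log2 fold change of 0.67. Col1a1, the main chain of fibrillar collagen I (chromosome 11, 94936224 to 94953042), stood at 1.2, 1.15 and 1.6 CPM in WT vehicle and 3.46, 7.68, 10.4 and 11.5 CPM in LKO tunicamycin, a log2 fold change of 2.67 ± 0.51 (SE; adjusted p 0.00714). Its partner Col1a2 stood at 2.04, 2.31 and 2.62 CPM and 5.46, 9.37, 13.5 and 13.8 CPM, a change of 2.2 ± 0.35 (SE; adjusted p 0.00473). In both, LKO tunicamycin 1 was the lowest of its group and still above every WT vehicle library. The fibrillar chains Col3a1, Col5a1 and Col5a2 rose by 1.85, 1.5 and 2.1, the basement membrane chains Col4a1 and Col4a2 by 1.13 and 1.05, and the beaded filament chains Col6a2 and Col6a3 by 1.67 and 2.11. Nid1, which links laminin to collagen IV, stood at 4.31, 7.05 and 4.23 CPM and 11.9, 13.3, 13.9 and 12.8 CPM (1.31 ± 0.20 (SE; adjusted p 0.00444)), and the small proteoglycans Lum and Bgn rose by 2.19 and 0.67, the membrane metalloprotease Mmp14 by 0.91. The falls were Serpine2, an inhibitor of thrombin and plasminogen activators, from 8.62, 5.77 and 7.87 CPM to 3.06, 1.69, 1.12 and 1.19 CPM, and the fibrillar collagen gene Col27a1, from 10.1, 5.51 and 6.85 CPM to 4.26, 1.95, 2.04 and 2.39 CPM. The higher count was 6, 7 and 7 without WT vehicle 1, 2 and 3, and the lower count 1 without WT vehicle 1.

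Markers of stellate cells and fibroblasts, the main matrix-producing cells of liver, moved with these genes. Of 15 tested, 6 rose and none fell: Col1a1, Col1a2 and Col3a1, which are in both lists, the platelet-derived growth factor receptor Pdgfrb at 1.8 ± 0.31 (SE; adjusted p 0.00517), the stellate cell globin Cygb at 1.24 and the integrin chain Itga8 at 1.54 ± 0.29 (SE; adjusted p 0.00642). Their summed level ran from 179.5 to 232 CPM in WT vehicle and from 232 to 316 CPM in LKO tunicamycin, so the ranges touched. The part of these cells in the matrix result was not tested. Pdgfrb stood at 0.958, 0.897 and 1.75 CPM in WT vehicle and at 3.2, 3.12, 4.48 and 5.54 CPM in LKO tunicamycin. Of 12 sinusoidal endothelial markers none was called by edgeR or DESeq2, nor passed an unadjusted p under 0.05 (0 of 12, sums from 169.9 to 188 CPM in WT vehicle and from 145 to 183 CPM in LKO tunicamycin), and the nearest to a call were Ptprb at -0.28 (adjusted p 0.234) and Cdh5 at 0.48 (0.248). Of 2 tested bile duct markers 1 rose, Spp1, osteopontin, which macrophages and stressed hepatocytes also express, from 9.58, 6.92 and 4.37 CPM to 105, 56, 31.2 and 40.6 CPM. The 5 mesothelial markers had too few reads to be tested, with sums of at most 2.06 CPM.

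Cell division and p53 target genes rose in 5 of 17 cases, with none lower and a median of 1.4. Ccnd1, cyclin D1, which drives entry into the cell cycle (chromosome 7, 144929931 to 144939831), stood at 4.07, 5.25 and 4.66 CPM in WT vehicle and at 13.6, 19.3, 22.3 and 22.1 CPM in LKO tunicamycin, a log2 fold change of 2.06 ± 0.31 (SE; adjusted p 0.00444). The groups lay well apart. Low levels were measured for the other 4: the proliferation marker Mki67 stood at 1.08, 1.79 and 1.75 CPM and 1.87, 7.42, 4.28 and 6.84 CPM, and the topoisomerase Top2a at 0.239, 0.513 and 0.146 CPM and 0.933, 2.73, 1.63 and 3.47 CPM. The replication helicase subunits Mcm3 and Mcm6 rose by 2.13 and 1.91. Top2a, Mcm3 and Mcm6 had at most 8 reads in any WT vehicle library and were tested only through their reads in other groups. Only 17 of the 24 listed genes had enough reads to be tested. The filter thus favours rises in this list, and its median and lack of falls are to be read with that limit. LKO tunicamycin 2 and 4 were the highest libraries for Mki67, Top2a, Mcm3 and Mcm6. The count was 1, 2 and 2 without WT vehicle 1, 2 and 3 and 2, 3 and 2 without LKO tunicamycin 2, 3 and 4, and with the replicate number as a block it was 2.

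In cholesterol synthesis 10 of 24 genes rose, none fell, and the median log2 fold change was 0.82. From the start of the pathway to its end, the called genes included Hmgcs1 at 1.24, which makes HMG-CoA, Idi1 at 1.12 and Fdps at 1.03, which build isoprenoid units, Fdft1 at 0.95, which makes squalene, Sqle at 1.74, which oxidises it, and then Cyp51 at 1.03, Nsdhl at 1.03, Sc5d at 0.61 and Dhcr7 at 0.93. Sqle (chromosome 15, 59315092 to 59331193) stood at 6.23, 14.2 and 10.5 CPM in WT vehicle and 37.4, 40.3, 26 and 33.5 CPM in LKO tunicamycin, with an edgeR adjusted p of 0.00746. Hmgcs1 stood at 102, 148 and 87.9 CPM and 264, 320.2, 200.1 and 278 CPM. Sqle and Hmgcs1 did not overlap, while Nsdhl met at its nearest libraries, both at 17.9 CPM. The count was 0, 2 and 3 without WT vehicle 1, 2 and 3 and 4 and 2 without LKO tunicamycin 1 and 2, so the list has no call left without WT vehicle 1. Its fatty acid counterpart, lipogenesis, showed 1 rise and 3 falls among 26, with a median of -0.10. The desaturase Scd2, which liver holds at low level, rose from 2.28, 1.41 and 1.75 CPM to 3.06, 4.94, 6.93 and 5.65 CPM. Me1, malic enzyme, which supplies NADPH, fell from 76.8, 50.4 and 61.5 CPM to 20.3, 17.6, 21.3 and 35.3 CPM, the carbohydrate-responsive factor Mlxipl was at -0.56 and the triglyceride-forming Dgat2 at -0.45. The lower count was 0 and 1 without WT vehicle 1 and 3, 5 without WT tunicamycin 3, 6 without LKO vehicle 3 and 4 summed, and 1 without LKO tunicamycin 3 or 4.

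Drug-metabolising enzymes moved in the other direction, with 9 of 38 cytochrome P450 genes of families 1 to 4 lower, none higher, and a median log2 fold change of -0.56. Their summed level ran from 5599 to 6439 CPM in WT vehicle and from 3059 to 4629.7 CPM in LKO tunicamycin. Beside Cyp2c37, its cluster neighbours Cyp2c29 and Cyp2c54 fell. Cyp2c29 (chromosome 19, 39287044 to 39330713) stood at 425, 455 and 429.7 CPM in WT vehicle and 240.0, 176, 174 and 234 CPM in LKO tunicamycin, a change of -1.08 ± 0.17 (SE; adjusted p 0.00473), and kept its call in every alternative run. Cyp2a5, the coumarin hydroxylase, stood at 162, 206 and 212 CPM and 28.9, 39.4, 26.5 and 75.8 CPM. The ethanol-metabolising Cyp2e1, a pericentral gene, was close to the threshold at -0.85 ± 0.26 (SE; adjusted p 0.0496). Cyp2f2, a periportal gene, was at -0.85 ± 0.15 (SE; adjusted p 0.00512), and Cyp4a12b, Cyp4v3 and Cyp2d22 were at -1.56, -0.87 and -0.56. Between 6 and 12 of the list were called lower in the 13 leave-one-out fits, 6 without each WT vehicle library.

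Conjugation enzymes, which attach glucuronate, sulfate or glutathione, were lower in 13 of 33 cases and higher in none, with a median of -0.57 and summed levels from 2760.0 to 2876 CPM in WT vehicle and from 1276 to 2031 CPM in LKO tunicamycin. The glucuronosyltransferases Ugt1a1, Ugt1a6b, Ugt2a3, Ugt2b1, Ugt2b5, Ugt2b34 and Ugt2b36 lay between -1.77 and -0.57. Ugt1a1, which conjugates bilirubin, stood at 48.4, 42.2 and 39.9 CPM in WT vehicle and 22.1, 26.7, 13.6 and 25.9 CPM in LKO tunicamycin, a change of -0.98 ± 0.19 (SE; adjusted p 0.00672). Ugt1a genes share their last exons, so reads there cannot be assigned to 1 of them. Sult2a8 stood at 269, 354 and 283 CPM and 81.9, 99.4, 54.8 and 149 CPM. The glutathione transferases Gsta2, Gsta3, Gstp1, Gstt2 and Gstz1 were at -2.08, -1.46, -0.89, -1.06 and -0.49. The count was 5 and 7 without WT vehicle 1 and 2 and 20 without WT tunicamycin 3.

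Bile acid genes fell in 7 of 21 cases and rose in none, with a median of -0.44. Falls included synthesis, with the oxysterol hydroxylase Cyp7b1 at -0.90 and Baat, which joins bile acids to taurine, at -0.84 ± 0.14 (SE; adjusted p 0.00512). They also included uptake, with the sodium-dependent carrier Slc10a1 at -0.58 and the organic anion carriers Slco1b2 at -0.67 and Slco1a1 at -1.51 ± 0.27 (SE; adjusted p 0.0058). Slco1a1 stood at 235, 248 and 208 CPM in WT vehicle and 109, 90.7, 43.9 and 80.8 CPM in LKO tunicamycin, with no overlap. The basolateral exporter Abcc3 was at -1.06 and Nr0b2, the repressor SHP, at -1.25. The count was 3, 2 and 4 without WT vehicle 1, 2 and 3 and 4, 4 and 2 without LKO tunicamycin 1, 2 and 3, and higher calls were 1 without WT vehicle 2 and 1 without LKO vehicle 2.

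Fatty acid oxidation genes were lower in 10 of 30 cases, with a median of -0.44, and 1 was higher. The falls covered mitochondrial steps, with Acadvl, Acads, Hadha, Hadh and Acaa2 between -0.54 and -0.39, and peroxisomal steps, with Acaa1b at -1.71. Fabp1, the abundant fatty acid carrier of hepatocytes, was at -0.85, while Fabp5, a carrier held low in hepatocytes, rose from 4.79, 6.41 and 5.25 CPM to 12.5, 13.4, 8.46 and 8.25 CPM. The thioesterase Acot3 had under 4 CPM in every library and overlapped, at -2.71. The lower count was 0, 1 and 3 without WT vehicle 1, 2 and 3 and 3 without LKO tunicamycin 1 or 2, and Fabp5 lost its higher call without WT vehicle 1.

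Nuclear-encoded subunits of oxidative phosphorylation gave the largest number of falls of any list, 24 of 59, with none higher. The list's median log2 fold change was -0.44, 56 of the 59 point estimates were below 0, and the summed level ran from 1598 to 1716 CPM in WT vehicle and from 1114 to 1269.8 CPM in LKO tunicamycin. Changes were small and narrow, with called members from -0.90 to -0.43. Sdhb, the iron-sulfur subunit of complex II (chromosome 4, 140961271 to 140979198), stood at 31.1, 34.5 and 28 CPM in WT vehicle and 16, 16.8, 15.7 and 18.6 CPM in LKO tunicamycin, a change of -0.90 ± 0.16 (SE; adjusted p 0.00608). All 5 complexes had called members, among them complex I with Ndufa5, Ndufa6, Ndufa9, Ndufb9, Ndufv1 and Ndufv2, complex II with Sdha and Sdhb, complex III with Uqcrc1, Uqcrc2, Uqcrfs1, Uqcrb and Cyc1, complex IV with Cox5b, Cox6b1, Cox6c, Cox7b and Cox7c, and ATP synthase with Atp5a1, Atp5b, Atp5c1 and Atp5j2. The electron carrier Cycs was at -0.43. Ndufa9 kept within 13.5 and 13.8 CPM in WT vehicle and stood at 8.13, 9.37, 7.95 and 7.17 CPM in LKO tunicamycin, and Uqcrb went from 32.7, 32.5 and 37.6 CPM to 18.5, 24.2, 18.1 and 19.9 CPM. These last 2 genes kept their call in every alternative run. The count was 6, 6 and 14 without WT vehicle 1, 2 and 3.

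Glucose and glycogen genes fell in 5 of 21 cases, with a median of -0.53. They were the liver pyruvate kinase Pklr at -1.21, the glycogen phosphorylase Pygl at -0.53, the glycogen-targeting phosphatase subunit Ppp1r3b at -0.80 ± 0.16 (SE; adjusted p 0.00916), the glycolytic regulator Pfkfb3 at -1.21 and G0s2, an inhibitor of triglyceride lipase, at -1.71. G0s2 acts on triglyceride and not on glucose. Ppp1r3b stood at 65.5, 68.8 and 70.1 CPM in WT vehicle and 42.8, 40.2, 41.8 and 31.9 CPM in LKO tunicamycin. The count was 1 and 2 without WT vehicle 1 and 2, 8 without WT tunicamycin 3, and 3 without LKO tunicamycin 3. Urea cycle and amino acid breakdown genes fell in 6 of 30 cases, with a median of -0.32. Cps1, which fixes ammonia in the first step of the cycle, stood at 1223, 1530.1 and 1475 CPM and 766, 866, 920.0 and 839.9 CPM, Otc, the second step, was at -0.82, and Asl, which releases arginine, was at -1.0 ± 0.17 (SE; adjusted p 0.00473). Tdo2 and Hpd, of tryptophan and tyrosine breakdown, were at -0.54 and -0.73, and Ahcy, of the methionine cycle, at -0.74. The urea count was 2 without WT vehicle 2 and 10 without WT tunicamycin 3.

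Lipid export genes fell in 3 of 18 cases: Apoa2, a protein of high density lipoprotein, from 594, 597 and 596 CPM to 348, 375, 316 and 348 CPM, Apoc1 at -0.66 and the hepatic lipase Lipc at -0.78. That list's median was -0.09, and its lower count was 0, 0 and 1 without WT vehicle 1, 2 and 3. Higher calls in it numbered 1 and 3 without WT tunicamycin 2 and 3 and 1 without LKO vehicle 2. Growth hormone axis and sex-biased genes fell in 6 of 27 cases, with a median of -0.22. These were the receptor Ghr at -0.56, the urinary proteins Mup3 at -1.35 and Mup21 at -1.03, Slco1a1, Sult2a8 and Keg1. Keg1, an acyltransferase-like gene of liver and kidney, stood at 45.4, 57.8 and 46.1 CPM in WT vehicle and 17.3, 16.5, 17.5 and 21.3 CPM in LKO tunicamycin, a change of -1.45 ± 0.27 (SE; adjusted p 0.00608). Of 19 NRF2 and antioxidant genes, 3 fell and 1 rose: catalase, Cat, at -0.83 ± 0.17 (SE; adjusted p 0.00824), the superoxide dismutases Sod1 at -0.51 and Sod2 at -0.61 ± 0.10 (SE; adjusted p 0.00512), and G6pdx, which supplies NADPH, from 0.958, 0.641 and 1.02 CPM to 2.0, 2.34, 2.14 and 2.28 CPM. The higher count was 0 without WT vehicle 1 or 2 and 2 without LKO tunicamycin 1.

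Heat shock genes, which encode chaperones of the cytosol and mitochondria, were lower in all 20 point estimates, and 10 of the 20 fell. The median log2 fold change was -0.58 and the summed level ran from 976 to 1087 CPM in WT vehicle and from 665 to 736 CPM in LKO tunicamycin, with no overlap. Hspa1b, the inducible HSP70 (chromosome 17, 34956429 to 34959238), stood at 3.83, 4.23 and 4.08 CPM in WT vehicle and 0.666, 0.781, 1.22 and 0.76 CPM in LKO tunicamycin, a change of -2.19 ± 0.38 (SE; adjusted p 0.00512). It has a near copy, Hspa1a, with which its reads may be shared. Hsph1, the HSP110 that recharges HSP70, stood at 23.2, 21.5 and 20.4 CPM and 10.7, 8.59, 9.78 and 9.01 CPM, a change of -1.19 ± 0.22 (SE; adjusted p 0.00608). Neither group entered the other's range in either gene. The constitutive HSP70 Hspa8 was at -0.76, its cochaperones Dnaja1 and Bag3 at -0.71 and -0.71, Hsp90ab1 and its partner Chordc1 at -0.47 and -0.85, and the mitochondrial Hspa9, Hspd1 and Hspe1 at -0.50, -0.40 and -0.91. The count was 6, 4 and 4 without WT vehicle 1, 2 and 3 and 6 without LKO tunicamycin 1 or 2.

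**Figure D3:**
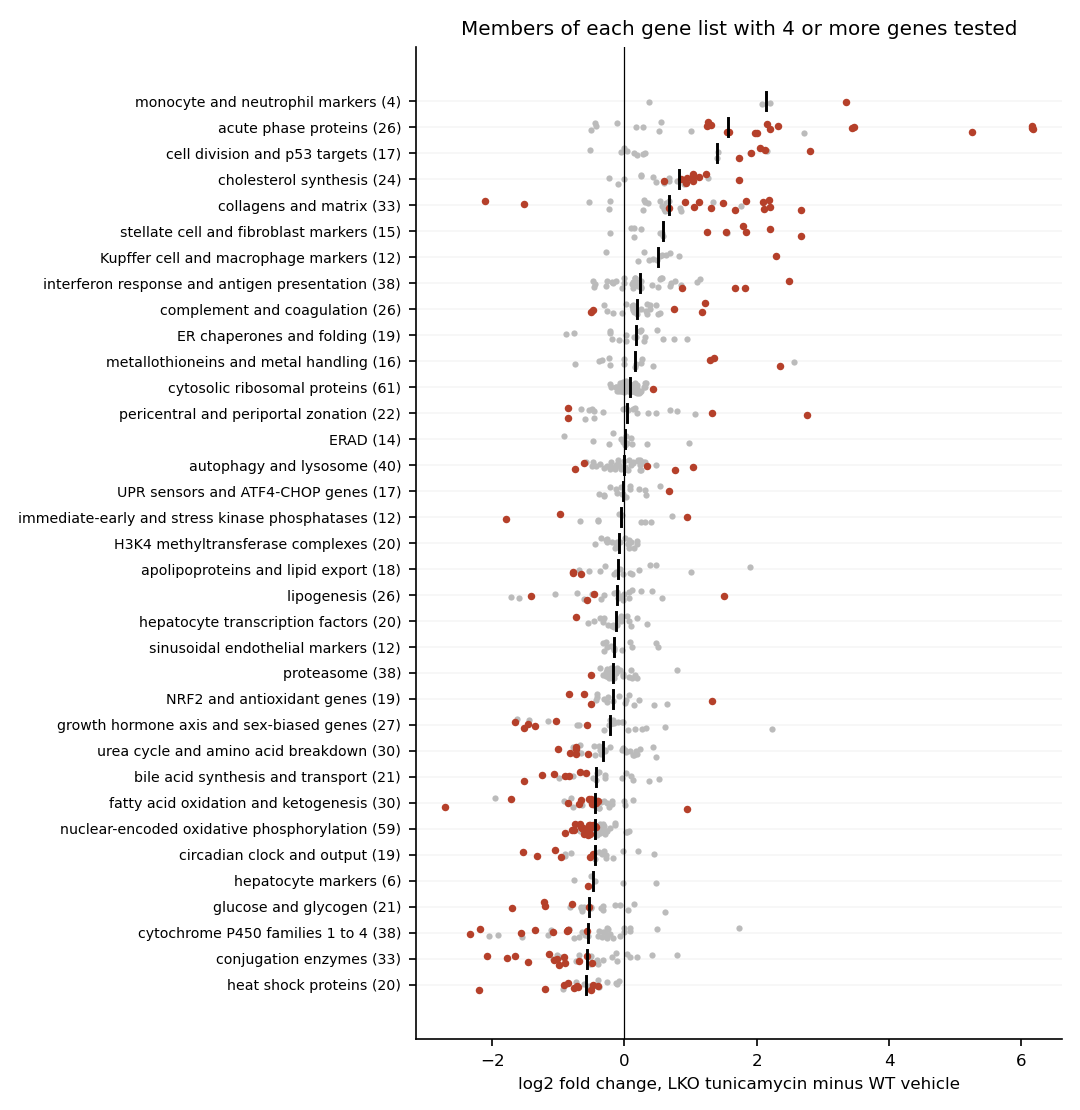
Each row is a gene list with 4 or more genes tested (number in brackets), each point is a member's log2 fold change of LKO tunicamycin minus WT vehicle, red where called, and the black bar is the list's median. Acute phase and cholesterol synthesis members lie mostly right of 0, all 20 heat shock members lie left of 0, and the ER chaperone and ERAD rows hold no red point in this fit of all 4 groups.

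Other protein homeostasis lists held few calls. Of 38 proteasome genes 1 fell, the catalytic subunit Psmb7 at -0.51, with a median of -0.17 and no call left without WT vehicle 2 or 3. Of 61 cytosolic ribosomal protein genes 1 rose, Rpsa at 0.43, with a median of 0.08, and the count was 0 without WT vehicle 1 or 3 and 0 without LKO tunicamycin 2. Rpl26, Rpl30 and Rpl34, ribosomal protein genes that every cell uses, had 0 reads in all 7 libraries. Of 40 autophagy and lysosome genes 3 rose and 2 fell (12.5% called, beside 8.26% over all genes), with a median of -0.01. The lysosomal protease Ctsl stood at 72.4, 76.5 and 80.5 CPM in WT vehicle and 139, 133, 138 and 107 CPM in LKO tunicamycin (0.76 ± 0.15 (SE; adjusted p 0.00743)), and the protease Ctsz was at 0.35. Atg3, which joins LC3 to lipid, stood at 27.3, 28.4 and 28.6 CPM and 17.7, 20.7, 17.1 and 17.9 CPM (-0.62 ± 0.10 (SE; adjusted p 0.00473)), and Atg14, of the complex that starts the autophagosome, was at -0.74. Higher calls in this list were 1 without WT vehicle 1, and lower calls 1 without WT vehicle 2.

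ER stress genes, which the unfolded protein response acts on, gave no call for chaperones in the fit of all 4 groups and several in the fit of the 2 groups alone. None of 19 ER chaperone and folding genes was called by edgeR (0 higher, 0 lower, median 0.17), nor any of 14 genes of ER-associated degradation, ERAD (0 and 0, median 0.02). At an unadjusted p under 0.05 there were 5 higher and 1 lower chaperone genes and 0 higher and 2 lower ERAD genes. Over all genes, 2359 of the 9644 tested had such a p. DESeq2 called 0 in both lists. With the 2 groups alone edgeR called 4 chaperone genes higher and 2 lower, and 1 ERAD gene lower. These stand beside 1384 calls among the 9311 genes tested in that fit. With all 4 groups and 1 sample left out, higher chaperone calls were 1 without WT tunicamycin 2 and 1 without LKO vehicle 1 or 2, lower ones 1 without WT tunicamycin 2, and lower ERAD calls 1 without WT tunicamycin 2 or 3 and 1 without LKO vehicle 3 and 4 summed. Of 17 genes of the stress sensors, ATF4 and CHOP, 1 rose, the transcription factor Atf5, from 22.4, 18.7 and 25.1 CPM to 32.6, 29.9, 45.3 and 32.9 CPM (0.68 ± 0.17 (SE; adjusted p 0.0244)), and the count was 0 without WT vehicle 1 or 2 and 0 without LKO tunicamycin 3. Hspa5, which encodes the ER chaperone BiP, stood at 197, 211 and 253 CPM in WT vehicle and 229, 142, 181 and 207 CPM in LKO tunicamycin, with overlap and a log2 fold change of -0.21 ± 0.26 (SE; adjusted p 0.678). Hsp90b1, GRP94, stood at 239, 260.4 and 281 CPM and 315, 245, 276 and 317 CPM, again with overlap, at 0.15 ± 0.19 (SE; adjusted p 0.684). Sequences upstream of these 2 genes show the ER stress response element, ERSE, that the unfolded protein response reads (matched on either strand), in capitals below (250 bases before the RefSeq start site, GRCm38.p6, 5′ to 3′ on the gene's strand; Hspa5 chr2:34771840-34772089, plus strand, and Hsp90b1 chr10:86705445-86705694, minus strand).
Hspa5: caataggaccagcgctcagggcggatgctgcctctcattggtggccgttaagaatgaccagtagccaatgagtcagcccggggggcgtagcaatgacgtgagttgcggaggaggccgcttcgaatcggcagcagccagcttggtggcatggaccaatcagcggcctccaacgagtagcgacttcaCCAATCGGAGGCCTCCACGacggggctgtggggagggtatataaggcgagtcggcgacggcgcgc
Hsp90b1: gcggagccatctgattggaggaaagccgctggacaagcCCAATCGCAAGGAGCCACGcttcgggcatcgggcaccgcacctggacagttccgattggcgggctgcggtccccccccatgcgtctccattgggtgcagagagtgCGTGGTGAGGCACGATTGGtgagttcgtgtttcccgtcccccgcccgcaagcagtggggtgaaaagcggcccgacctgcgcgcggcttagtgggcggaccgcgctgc
The Hsp90b1 window holds the element once on each strand. Of 32851 promoter windows of this length in the RefSeq table, 37 hold it (0.113%), and of the 11 ER stress markers tested these 2 did. A match describes letters only.

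The remaining ER stress markers lay on both sides of 0. None of the 11 tested was called by edgeR over the 4 groups or by DESeq2. Of the 11, 4 had an unadjusted p under 0.05, beside 2359 of the 9644 genes tested. For these 4 markers, Pdia4, Dnajb9, Herpud1 and Sdf2l1, the CPM ranges did not overlap, a state met by 25.5% of the genes tested. All 4 were called in edgeR's fit of the 2 groups alone, with adjusted p of 0.00769, 0.00252, 0.000258 and 0.00703. That fit called 1384 of 9311 genes. The 4 markers were also called with no filter on low counts, where 1143 of 16251 genes were. The disulfide isomerase Pdia4 stood at 58.4, 54.8 and 69.5 CPM in WT vehicle and 102, 71.8, 102 and 90.4 CPM in LKO tunicamycin (0.59 ± 0.21 (SE; adjusted p 0.0858)). The BiP cochaperone Dnajb9 was on the other side, at 47.8, 36 and 34.3 CPM and 28.1, 18.6, 23.1 and 23 CPM (-0.76 ± 0.28 (SE; adjusted p 0.104)), as was the ERAD adaptor Herpud1, at 113, 103 and 142 CPM and 67.6, 53.9, 65.3 and 66.6 CPM (-0.91 ± 0.30 (SE; adjusted p 0.0694)). Sdf2l1, another BiP partner, was at 0.76 ± 0.27 (SE; adjusted p 0.0935). The transcription factors Xbp1, Atf4 and Ddit3 were at 0.22, 0.09 and -0.31 with adjusted p of 0.394, 0.846 and 0.89, and Trib3 and Asns, targets of ATF4, at 0.32 and 0.53 with adjusted p of 0.87 and 0.776. Atf3 had too few reads to be tested. In WT tunicamycin the libraries differed, with library 2 the lowest for both Hspa5 and Ddit3: Hspa5 stood at 854, 313 and 786 CPM and Ddit3, which encodes CHOP, at 26.3, 1.3 and 20.4 CPM in WT tunicamycin 1 to 3. In the single-factor groups, whose libraries are shared with other comparisons, the mean of Hspa5 was 651 CPM in WT tunicamycin and 139 CPM in LKO vehicle, beside 220.0 in WT vehicle and 189.9 in LKO tunicamycin. The means of Ddit3 were 16, 0.581, 1.24 and 0.924 CPM in the same order. The signs of Ddit3, Trib3, Asns and Atf4 were not stable over the alternatives, and a p that misses the threshold does not show that the groups are alike.

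**Figure D4:**
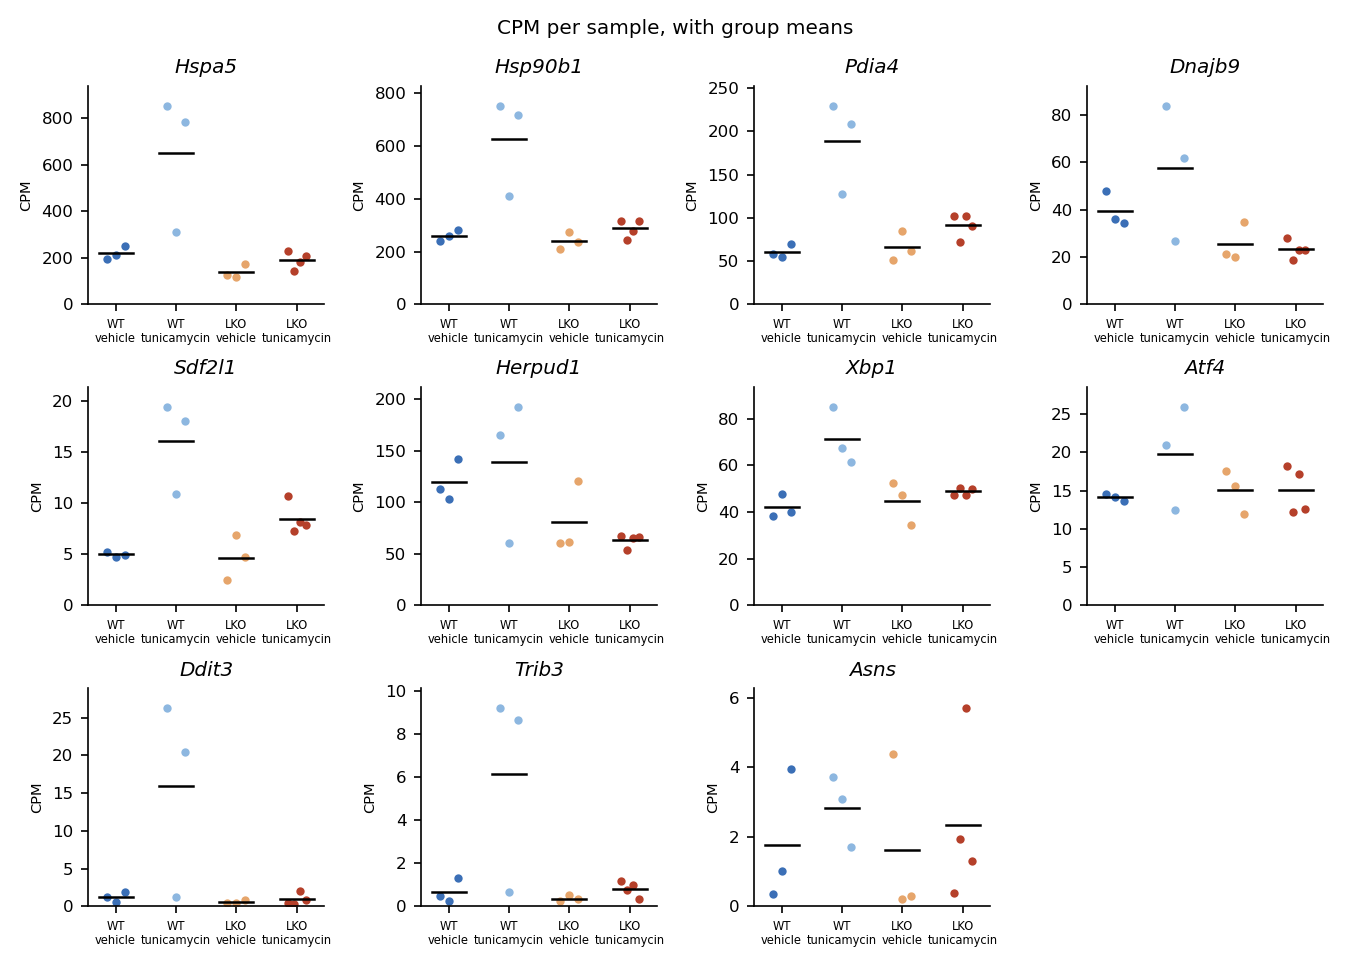
CPM of 11 ER stress markers (y axis from 0, black bars are group means) for each sample of the 4 groups on the x axis, with LKO vehicle 3 and 4 summed as 1 sample. WT vehicle and LKO tunicamycin points overlap for Hspa5, Hsp90b1, Xbp1 and Atf4, while the WT tunicamycin points reach the highest values for Hspa5 and Ddit3.

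Clock genes and their outputs, which cycle over the day, fell in 6 of 19 cases and rose in none, with a median of -0.45. Per2, a repressor of the clock (chromosome 1, 91415977 to 91459351), stood at 13.7, 13.2 and 12.1 CPM in WT vehicle and 7.99, 7.03, 4.08 and 6.41 CPM in LKO tunicamycin, a change of -1.04 ± 0.18 (SE; adjusted p 0.00473). Cry1, its partner, stood at 4.55, 3.97 and 4.23 CPM and 1.47, 1.95, 1.02 and 1.52 CPM, a change of -1.53 ± 0.32 (SE; adjusted p 0.0105). The output factors Tef and Hlf were at -0.48 and -0.51, and the deubiquitinase Usp2 at -1.32. In Per2 and Cry1 every LKO tunicamycin library lay under every WT vehicle library. The lower count was 2 and 3 without WT vehicle 1 and 3. All livers were taken 8 h after a morning injection, so 1 time of day was sampled. Windows upstream of 4 of the 6 genes were in the RefSeq table, and 2 held the E-box CACGTG that clock activators bind and 1 the cAMP response element TGACGTCA. Over all 32851 windows the shares were 6.02% and 1.55%. With only 4 windows, the counts are too few to compare with these shares. The E-box also lay upstream of 2 of the 3 called immediate-early genes below. The Cry1 window (chr10:85185055-85185304, minus strand, E-box in capitals) and the Hlf window (chr11:90390918-90391167, minus strand, cAMP response element in capitals) are shown because both genes fell.
Cry1: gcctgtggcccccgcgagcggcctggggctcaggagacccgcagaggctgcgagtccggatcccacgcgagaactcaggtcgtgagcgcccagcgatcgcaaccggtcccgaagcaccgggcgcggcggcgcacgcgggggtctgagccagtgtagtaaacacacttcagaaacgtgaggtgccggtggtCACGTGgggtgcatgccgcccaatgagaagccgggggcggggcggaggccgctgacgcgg
Hlf: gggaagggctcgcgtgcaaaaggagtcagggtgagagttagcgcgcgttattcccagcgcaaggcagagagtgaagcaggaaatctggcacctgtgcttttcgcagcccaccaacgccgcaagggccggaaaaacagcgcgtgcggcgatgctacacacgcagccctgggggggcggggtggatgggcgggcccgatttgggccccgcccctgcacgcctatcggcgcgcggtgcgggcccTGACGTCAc

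Dusp1, which dephosphorylates and stops stress-activated MAP kinases, belongs to the immediate-early list, in which 2 of 12 genes fell and 1 rose (median -0.06). It stood at 7.78, 8.84 and 9.91 CPM in WT vehicle and 2.27, 2.47, 2.34 and 3.04 CPM in LKO tunicamycin (chromosome 17, 26505591 to 26508472), a change of -1.79 ± 0.26 (SE; adjusted p 0.00379). Its group means were 2.38 CPM in WT tunicamycin and 8.41 CPM in LKO vehicle. The level in LKO vehicle thus lay near that of WT vehicle, and both tunicamycin groups were low. Dusp6, which acts on ERK, was at -0.97 with overlap, and Klf6, a zinc finger factor, rose from 2.63, 3.59 and 2.92 CPM to 5.06, 6.64, 6.83 and 4.99 CPM. Lower calls were 1 without WT vehicle 1 or 2 and 1 without LKO tunicamycin 1, 3 or 4, and higher calls 0 without WT vehicle 1, 2 or 3 and 0 without LKO tunicamycin 2 or 3. The window upstream of Dusp1 (chr17:26508473-26508722, minus strand) holds the complete cAMP response element, in capitals, which includes the shorter core TGACG found in 17.8% of windows. It also holds the E-box CACGTG, left in small letters.
Dusp1: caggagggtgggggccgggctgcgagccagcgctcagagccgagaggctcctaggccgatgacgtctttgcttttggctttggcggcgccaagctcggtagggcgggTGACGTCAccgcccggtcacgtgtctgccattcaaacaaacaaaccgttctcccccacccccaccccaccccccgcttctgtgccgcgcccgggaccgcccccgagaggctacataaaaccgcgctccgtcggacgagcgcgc

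Other genes of the complexes that contain RBBP5 gave no call. None of 20 genes of the H3K4 methyltransferase complexes other than Rbbp5 was called by edgeR or DESeq2 (0 higher, 0 lower, with 1 lower at an unadjusted p under 0.05), their median was -0.08, and the lowest p values belonged to the core subunit Dpy30 at -0.45 (adjusted p 0.189) and the enzyme Setd1b at -0.36 (0.208). Of 20 hepatocyte transcription factors 1 fell, Nr1i3, the xenobiotic receptor CAR, from 20.4, 16 and 18.9 CPM to 12, 11.5, 7.74 and 13.5 CPM, and the count was 0 without WT vehicle 1, 2 or 3, 2 without WT tunicamycin 3, 2 without LKO vehicle 3 and 4 summed, and 0, 0 and 2 without LKO tunicamycin 2, 3 and 4. Of 6 hepatocyte markers 1 fell, the antitrypsin gene Serpina1c at -0.55 (lower count 0 without WT vehicle 1, 2 or 3 and 0 without LKO tunicamycin 2, 3 or 4, and higher count 1 without WT tunicamycin 3), and their summed level ran from 16972 to 18760.0 CPM in WT vehicle and from 13956 to 17977 CPM in LKO tunicamycin. Zonation genes split, with 2 of 22 higher and 2 lower (median 0.04): the adhesion gene Cdh1 at 1.33 ± 0.27 (SE; adjusted p 0.00907) and the amino acid carrier Slc1a4 at 2.77 rose, and Cyp2e1 and Cyp2f2 fell. The higher count was 1 without WT vehicle 1 or 2, and the lower count 1 without WT vehicle 1, 2 or 3, 1 without LKO vehicle 2, and 1 without LKO tunicamycin 1, 2 or 3. Slc1a4 had under 1 CPM in each WT vehicle library and 3.2, 2.99, 3.67 and 1.09 CPM in LKO tunicamycin, and was tested only through its reads in other groups. Of markers of red cell precursors 1 was tested and fell, the heme synthesis gene Alas2 from 17.2, 19.5 and 25.1 CPM to 13.9, 12.1, 11.5 and 13.8 CPM, and the count was 0 without WT vehicle 2 or 3 and 0 without LKO tunicamycin 2 or 3. The 4 globin genes of that list had 0 reads in all 7 libraries, as did 3 ribosomal protein genes above, so a 0 here does not show that the RNA was absent. The pancreas marker Cela1, the only 1 tested, was at -0.60 (adjusted p 0.366).

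The single-factor groups were placed beside the contrast for all called genes. In the same fit, WT tunicamycin against WT vehicle gave 35 calls (0.363% of genes tested), LKO vehicle against WT vehicle 4 (0.0415%), LKO tunicamycin against WT tunicamycin 83 (0.861%) and LKO tunicamycin against LKO vehicle 3 (0.0311%). Without WT tunicamycin 3 the counts were 615 (6.19%), 17 (0.171%), 64 (0.644%) and 67 (0.674%) in the same order, a fit added after seeing the data. These comparisons share libraries with the contrast of 797 calls, so their agreement is no separate evidence. For 704 of the 797 genes the mean of WT tunicamycin lay between the means of WT vehicle and LKO tunicamycin, for 777 that of LKO vehicle did, and for 689 both did. Without WT tunicamycin 3 these counts were 595 for WT tunicamycin and 580 for both. The 797 genes were selected because WT vehicle and LKO tunicamycin differed in them, which by itself favours other groups' means lying in between. No share over all genes tested stands beside these counts, so they cannot show that intermediate means were more frequent than the selection gives. The step medians that follow rest on the same selected genes and have the same limit. Over the 386 genes called higher, the median log2 fold change was 0.59 from WT vehicle to WT tunicamycin and 0.47 onward to LKO tunicamycin, and 0.60 from WT vehicle to LKO vehicle and 0.44 onward. Over the 411 called lower, the same steps had medians of -0.38 and -0.30, and of -0.29 and -0.37. Without WT tunicamycin 3, the steps through WT tunicamycin had medians of 0.72 and 0.33 over the higher genes and -0.51 and -0.15 over the lower ones.

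Named genes differed in where the single-factor groups lay. For Saa2 the samples of WT tunicamycin stood at 1970.3, 2060.0 and 66.4 CPM and those of LKO vehicle at 60.7, 1754 and 275 CPM, so each group spanned low and high samples. The spread of Orm2 was alike, with WT tunicamycin at 393, 347 and 7.56 CPM and LKO vehicle at 17.8, 324 and 32.2 CPM. WT tunicamycin 3 and LKO vehicle 1 were the lowest samples of their groups for both genes. LKO vehicle 2 was by far the highest of its group, so the mean of LKO vehicle rests mostly on it. For Col1a2 the mean of LKO vehicle, 9.21 CPM, lay near that of LKO tunicamycin, 10.5, and WT tunicamycin was at 4.29. Serpine2 had means of 2.2 CPM in LKO vehicle and 1.77 in LKO tunicamycin, against 6.54 in WT tunicamycin and 7.42 in WT vehicle. Col1a2 and Serpine2 thus divided the groups by genotype in their means, as Dusp1 divided them by treatment. Between both lay Cyp2c37, with means of 96.9 CPM in WT vehicle, 71.5 in WT tunicamycin (samples at 57.8, 59.5 and 97.2), 41.5 in LKO vehicle and 19.3 in LKO tunicamycin, and Zbtb16, with 25.8, 15.1, 14.2 and 4.42 CPM in the same order (WT tunicamycin samples at 15.7, 17.7 and 12). For Dusp1 the WT tunicamycin samples stood at 1.65, 1.78 and 3.7 CPM, for Col1a2 at 3.3, 6.65 and 2.93 CPM and for Serpine2 at 7.57, 6.49 and 5.56 CPM. Whether 1 factor's effect depended on the other was not tested here.

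**Figure D5:**
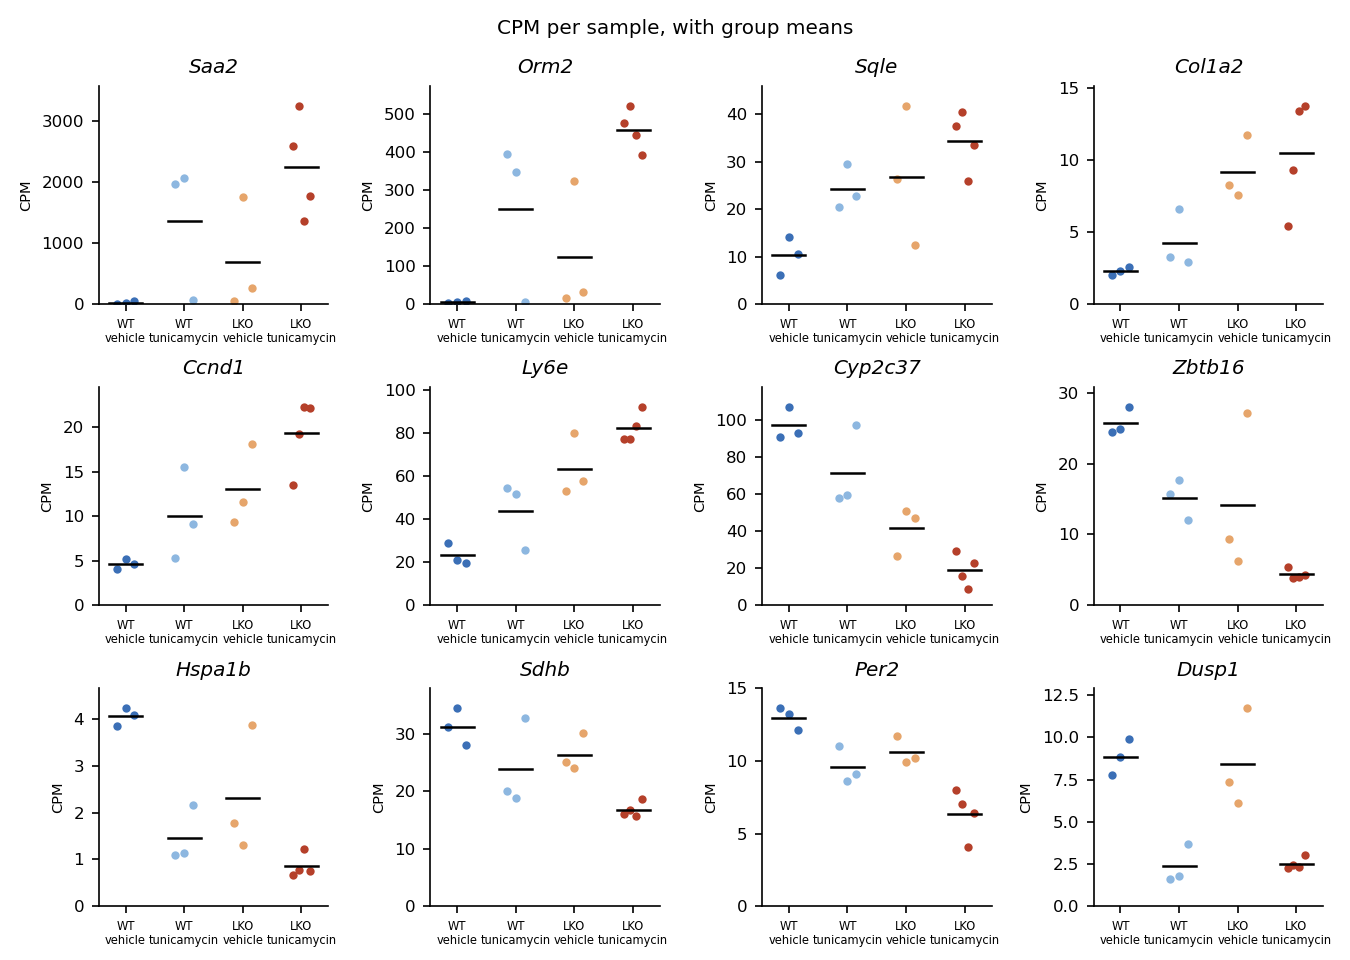
CPM of 12 named genes (y axis from 0, black bars are group means) for each sample of the 4 groups on the x axis, with LKO vehicle 3 and 4 summed as 1 sample. WT vehicle and LKO tunicamycin do not overlap in any panel, as in 785 of the 797 called genes. The single-factor groups spread widely for Saa2 and Orm2, and Dusp1 is low in most samples of both tunicamycin groups.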

How the data were processed

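Liver RNA libraries of 14 samples in 4 groups were used, and the contrast was LKO tunicamycin minus WT vehicle. The deposited counts are whole reads per gene, in STAR's layout per the file headers, unnormalised, with reads that map to several places or to no gene listed apart. Trimmomatic, STAR, Cufflinks and the build mm10 are named in the submitters' processing notes, without versions. FPKM values, which divide fragments by transcript length and by depth, come from a second table that the authors deposited, with 1 column for each of the 14 samples per the file headers, and 0 columns were left unused.

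The column of sense reads was used (from 99.5 to 99.6% of stranded reads in the 7 libraries). LKO vehicle 3 and 4 differed by little more than sampling noise (chi-square per degree of freedom 1.12, against 3.05 to 7.81 in the 9 pairs within the 2 groups compared) and were summed, which left 13 samples. edgeR 4.0.16 in R 4.3.3 fitted 1 mean per group with TMM scaling, filterByExpr by group and the quasi-likelihood test, on 9644 genes with 9 residual degrees of freedom and a common biological coefficient of variation of 0.155. Adjusted p values of edgeR are by Benjamini-Hochberg over the genes tested in the fit, 9644 here and 9311 with the 2 groups alone. Unadjusted p values are named as such. SE is the log2 fold change divided by the root of F. The code was tested on simulated data.

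Named genes were Rbbp5, the 15 largest called rises and 15 largest called falls among genes whose 2 groups did not overlap and averaged 2 or more in log2 CPM, the called members of 40 gene lists, 12 ER stress markers, and up to 2 members of each list without a call. The members, lists and rule were chosen with earlier results of these data known. Alternatives, each run on the same contrast, were other scalings, filters, strand settings, DESeq2 1.42.0, log2 FPKM tested with limma 3.58.1, the 2 groups alone, a replicate block and leaving out each sample. Some called genes are not reported here. Promoter windows came from RefSeq, GRCm38.p6.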

Additional observations from a re-analysis of the deposited data

Results flagged for a closer look

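In 9 of 231 genes checked, 1 of the 4 LKO tunicamycin libraries stood apart from the other 3 by Dixon's criterion, which picks about 1 in 20 groups of unremarkable values, so 9 is no more than chance gives. LKO tunicamycin 3 was the lowest library for Atg14, an autophagy gene, at 4.076 CPM, for Cyp2c54 at 10.5 CPM (others 35.5 to 40.5) and for Idi1, of cholesterol synthesis, at 16.92 CPM, and the highest for Ntrk2, at 20.28 CPM against 2.08 to 4.56 in the others. LKO tunicamycin 2 was the lowest for Cox5b, of complex IV, at 10.41 CPM, for Hadha, of fatty acid oxidation, at 57.78 CPM and for Herpud1 at 53.87 CPM, and the highest for S100a8, the neutrophil marker, at 4.424 CPM. LKO tunicamycin 4 was the highest for Ghr, the growth hormone receptor, at 187.1 CPM, with the others between 154 and 155. The WT vehicle group, with 3 libraries, was not checked by this criterion.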

How the results depend on the processing

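Leaving out each sample in turn changed the 797 calls (386 higher, 411 lower) to between 193, without WT vehicle 1, and 1097, without WT tunicamycin 3 (81 to 517 higher, 112 to 580 lower). LKO tunicamycin against WT vehicle gave 1384 calls when only the 2 groups compared were fitted (671 higher, 713 lower), and 1209 and 1226 when LKO tunicamycin 1 or 4 was then left out (598 and 590 higher, 636 lower without LKO tunicamycin 4), but 830 and 877 without WT vehicle 1 and 2, a setting added after seeing the data. With log2(FPKM + 1) there were 196 calls (118 higher, 78 lower) and with log2(FPKM + 0.1) 202 (132 and 70), so that 60.2 and 65.3% of calls were higher. With FPKM + 1 the lists kept 5 acute phase, 1 cholesterol synthesis, 4 oxidative phosphorylation, 4 P450 and 3 higher matrix calls, in the directions described, while 19 of 41 list counts reached 0, among them the falls in fatty acid oxidation, glucose and glycogen, lipogenesis and lipid export, the rises in stellate cell markers and both directions in complement. Of 213 called genes named in the text, all kept their direction in each of the 32 settings that tested them and 36 also kept their call. For 785 of the 797 called genes the 2 groups did not overlap, so leaving out 1 sample could hardly turn a direction. The kept directions are thus no separate evidence. Pdia4, Dnajb9, Sdf2l1 and Herpud1, without a call over the 4 groups, were called in 9, 10, 9 and 13 settings. Among the other ER stress markers, Asns turned to -0.45 in log2 without LKO tunicamycin 3 (-0.43 with the 2 groups alone) and ran to 1.81 without WT vehicle 3. Atf4 ran from -0.011 without LKO tunicamycin 1 (-0.0072 with the 2 groups alone) to 0.18. Ddit3 ran from -1.07 to 0.074 without WT vehicle 3 (0.079 with the 2 groups alone). Trib3 ran from -0.079 without WT vehicle 2 to 1.11. The cause was not tested. Other scalings, filters, strand settings and DESeq2 gave from 686 to 1143 calls. For the replicate pairing, same-numbered libraries of the 2 groups correlated at -0.01 to 0.04, and 1 of 3 WT vehicle libraries correlated best with its own number. The values were centred within each group and only 3 pairs share a number, so this check cannot exclude pairing. A fit with the replicate block gave 771 calls (373 higher, 398 lower).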

Other observations

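Families and genes in this section were singled out after their values were seen. Carboxylesterases, which cleave drug and lipid esters, were called lower in 7 of 12 cases and higher in none, with a median log2 fold change of -1.0 (Ces1d, Ces1e, Ces1f, Ces1b, Ces2a, Ces3a and Ces3b). Of 6 tested Akr1c genes, which encode aldo-keto reductases of steroids, 5 were lower (Akr1c19, Akr1c14, Akr1c20, Akr1c13 and Akr1c12, median -0.84). Close copies within both families leave the split of reads uncertain. Pyruvate dehydrogenase and citrate cycle genes were lower in 12 of 23 cases and higher in none, with a median of -0.39, beside the falls in oxidative phosphorylation. Heavy chains of the inter-alpha-trypsin inhibitor were higher in 4 of 5 cases.

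Il1rap, the accessory chain of the interleukin 1 receptor (chromosome 16, 26581509 to 26730128), had the smallest p of all 9644 genes. It stood at 52.7, 50.9 and 44.3 CPM in WT vehicle 1 to 3 and at 25.7, 24.5, 26.5 and 23.1 CPM in LKO tunicamycin 1 to 4, a difference of -0.98 ± 0.12 in log2 with its SE (adjusted p 0.00194 by edgeR), lower in 4 of 4 libraries than any WT vehicle library. Means were 35.5 CPM in WT tunicamycin and 31.3 CPM in LKO vehicle. Il6ra, the ligand-binding receptor of interleukin 6, stood at 20.5, 23.6 and 27.4 CPM and 15.2, 14.7, 12.1 and 10.3 CPM, a change of -0.87 ± 0.18 (edgeR adjusted p 0.00999), and was not called with FPKM. The acute phase genes were higher in these LKO tunicamycin libraries, and no relation between them and the receptors was tested.

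Gldn, gliomedin (chromosome 9, 54286486 to 54341777), had 0 reads in the 3 WT vehicle libraries and 1.33, 2.99, 15.6 and 4.02 CPM in LKO tunicamycin 1 to 4. Against a floor of 3 reads over the WT vehicle group, 0.13 CPM, the LKO tunicamycin mean of 5.98 CPM was at least 45.9-fold higher. The mean without LKO tunicamycin 3, 2.78 CPM, was at least 21.3-fold higher. These folds hold for means, and LKO tunicamycin 1 lay nearer to the floor. With 0 reads in WT vehicle, the gene could be tested only through its reads in other groups. LKO tunicamycin 3 held the highest value for Gldn, as it did for Ntrk2.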
